A study of Mus musculus with 68 samples.

Results

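The 9 genes described here encode the mouse MHC class II antigen presentation machinery: the chains H2-Aa, H2-Ab1, H2-Ea and H2-Eb1, the chaperones H2-Ob, H2-DMa and H2-DMb1, the invariant chain Cd74 and the transactivator Ciita. They were measured in spontaneous mammary tumours of 1 labelled group of mice. The mice carried the MMTV-PyMT transgene, in which a mammary tumour virus promoter expresses a viral oncogene in the mammary gland, and their strain background was a ((NZB x PyMT) x FVB) backcross. The labels give no age, treatment or control tissue, and nothing says how many tumours an animal gave. The commonly used PyMT line has an FVB background; if that holds here, a backcross animal can carry an NZB chromosome beside an FVB one at a locus, or FVB on both.

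The members were found as all probe sets (groups of short probes that read 1 transcript) that the platform annotation assigns to them, 21 of 45101 in all. Where a gene has several, the one of highest mean among those annotated to it alone stands for it. A second H2-Ob probe set, annotated to H2-Ob and Gm20506 together, has the higher mean (4.41 against 4.30) and is given beside it. Of the 9 genes, 8 had a probe set of their own. H2-DMb1 was read only by probe sets shared with its near-identical neighbour H2-DMb2, so its value is written H2-DMb1/H2-DMb2 and cannot be assigned to either gene. Of 12563 genes or shared probe sets tested, 8 were members. Ciita did not pass the filter on low values (95th percentile above the median of all values, 5.42), so its values come from a fit with no filter.

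The values are described over 56 of the 68 arrays, 1 per animal. The other 12 had a mean of at least 8.97 (log2) for the 18S ribosomal RNA control probe sets, against at most 6.84 in the 56. The 56 arrays hold 3 sets set apart by probe sets spread over many chromosomes, which the labels do not name: array set 1 with 39 arrays, set 3 with 9 and set 4 with 8. All 8 of the 56 arrays whose titles carry a suffix R, of meaning not given, are in set 3. The animal numbers of set 4 lie between 4950 and 5000. Every fit below has array set as a term. The tumour label was checked against 10 epithelial genes, all measured, whose mean level lay between 10.46 and 11.54. In 1 array of set 3 the epithelial score was the lowest, 4.05 SD below the mean (-4.05), and its macrophage (-2.80), dendritic cell (-2.71) and T cell (-2.61) scores were also the lowest of 56. That array was kept. It was also the lowest of 56 for H2-Aa, H2-Ab1, H2-DMa, H2-DMb1/H2-DMb2 and Cd74.

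MHC class II molecules are pairs of an alpha and a beta chain that display peptides from the endosome to CD4 T cells. Dendritic cells, macrophages and B cells make them constantly, and interferon gamma induces them in many other cells through Ciita. The mouse has an A molecule, from H2-Aa and H2-Ab1, and an E molecule, from H2-Ea and H2-Eb1. Strains differ in these genes: FVB carries the H2q haplotype, in which the E molecule is not displayed, and NZB carries H2d, in which it is. In bulk tissue, fewer cells of a type and less RNA per cell cannot be told apart.

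Promoters of class II genes are known for a conserved X box, bound by the RFX complex, followed by a Y box, bound by NF-Y, on which Ciita docks. The promoter stretches below are from RefSeq (GRCm38.p6, the C57BL/6J reference, which is neither strain of the cross). They are shown to compare this layout between members, and not all of them hold it. Its relation to the levels in these tumours was not tested. Capitals mark AACNNNTGA, the core of the X box, and TGATTGG, the core of the Y box. Both strands were searched.

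H2-Eb1, chr17:34305738-34305852, plus strand: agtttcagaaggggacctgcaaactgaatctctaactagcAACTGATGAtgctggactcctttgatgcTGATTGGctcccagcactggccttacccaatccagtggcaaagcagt
H2-Ob, chr17:34238780-34238892, plus strand: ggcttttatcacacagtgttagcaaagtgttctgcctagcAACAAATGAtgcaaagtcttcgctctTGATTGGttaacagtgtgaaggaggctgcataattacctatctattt
H2-DMb1, chr17:34153059-34153174, plus strand: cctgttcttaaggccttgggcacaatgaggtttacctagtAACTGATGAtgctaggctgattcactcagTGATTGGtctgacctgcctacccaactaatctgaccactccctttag
H2-Aa, chr17:34287827-34287913, minus strand: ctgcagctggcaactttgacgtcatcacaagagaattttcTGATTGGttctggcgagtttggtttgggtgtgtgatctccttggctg

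H2-Eb1, H2-Ob and H2-DMb1 hold the X core and then the Y core, with 19, 17 and 20 bases between them. Their X cores begin 89, 85 and 92 bases before the transcription start. H2-Aa holds the Y core alone, 50 bases before its start, and both windows of H2-DMa hold neither. Among 32851 promoter windows of 300 bases, 11.9% held the X core, 7.82% the Y core and 0.0517% (17 windows) the X core followed by the Y core after 10 to 30 bases. The annotated promoter of H2-DMb2 was another of these 17. A match is a description of letters and no measurement of binding. Of the members, 5 had a window in the table.

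To set the level tied to chromosome 17 apart from cell content, animals were divided by D17H6S56E-5, a gene of the MHC region that is no member. Its values form 2 levels with nothing between them: 27 arrays at 7.15 to 8.15 (log2, the scale of all levels below) and 29 at 10.26 to 11.82. It was chosen with earlier results of these data known, in which it divided animals much as H2-Eb1 did, so member values on its 2 sides are a description with no test. Both levels occurred in each array set, with 18 lower and 21 upper in set 1, 3 and 6 in set 3, and 6 and 2 in set 4. No genotypes were analysed here.

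H2-Eb1, the beta chain of the E molecule, was low on one side and high on the other. Its level ran from 5.98 through a median of 6.47 to 7.17 in the 27 lower arrays, and from 7.07 through 8.84 to 10.02 in the 29 upper ones. The sides touched at 1 array each: the lowest upper array was the one with the lowest epithelial score, and without it the upper side began at 8.02 and the sides did not overlap. With array set and macrophage score in the fit, the upper side was higher by 2.40 ± 0.08 (log2, SE, n = 56), which is 5.29-fold. The medians of H2-Eb1 on the lower and the upper side were 6.44 and 8.997 in array set 1, 6.12 and 8.50 in set 3, and 6.51 and 8.03 in set 4.

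H2-Ea, the alpha chain of the E molecule, followed the same side, and its probe sets differed in how far. The representing probe set ran from 7.10 through 7.61 to 8.37 in the lower arrays and from 8.04 through 9.34 to 10.16 in the upper, with 2 lower and 3 upper arrays in the overlap. The fitted difference was 1.495 ± 0.08 (SE), or 2.82-fold. The second H2-Ea probe set ran from 4.91 through 5.89 to 6.78 in the lower arrays and from 7.60 through 9.91 to 10.88 in the upper, a fitted difference of 3.75 ± 0.09 (SE), or 13.5-fold, with no overlap. The third H2-Ea probe set stayed between 2.25 and 2.79 in all 56 arrays. Of the 14 member probe sets past the filter this second H2-Ea set was the 1 that did not overlap, while 0.0157% of all 25457 probe sets past it (4, the marker left out) did not overlap. The other 3 were probe sets of H2-D1, a class I gene of the same region. Whether the probes match both parental alleles was not tested.

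H2-Aa and H2-Ab1, which form the A molecule, overlapped almost fully between the sides and lay on the opposite side of 0. H2-Aa ran from 9.56 through 10.73 to 11.73 in the lower arrays and from 8.03 through 10.19 to 11.48 in the upper, a fitted difference of -0.47 ± 0.09 (SE). Its other probe sets gave -0.16, -0.04 and -0.29, so the size for H2-Aa depends on the probe set. Without the array of lowest epithelial score the upper side of H2-Aa began at 9.18. H2-Ab1 ran from 8.51 through 9.80 to 10.78 and from 7.65 through 9.49 to 10.55, a fitted difference of -0.21 ± 0.08 (SE), and its other probe sets gave -0.28 and -0.23. Without that array its upper side began at 8.54. The medians of H2-Aa on the lower and the upper side were 10.73 and 10.53 in array set 1, 10.895 and 9.67 in set 3, and 10.92 and 9.59 in set 4. Those of H2-Ab1 were 9.79 on both sides in set 1, 9.89 and 8.998 in set 3, and 9.85 and 8.94 in set 4. The medians of both genes lay further apart in sets 3 and 4, which hold few arrays, than in set 1.

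Cd74, the invariant chain that guards the peptide groove and steers class II to the endosome, lay at 9.74 to 12.31 (median 11.26) in the lower arrays and 8.87 to 11.96 (median 10.998) in the upper. Its fitted difference was -0.16 ± 0.09 (SE). H2-DMa, a subunit of the DM molecule that exchanges the invariant chain fragment for peptide, lay at 6.72 to 8.33 (median 7.48) and 6.43 to 8.42 (median 7.51), with a fitted difference of 0.03 ± 0.06 (SE), and 0.03 ± 0.05 in its second probe set. The shared H2-DMb1/H2-DMb2 value, for the other DM subunit, lay at 7.15 to 8.92 (median 7.83) and 5.92 to 8.56 (median 7.61), a difference of -0.30 ± 0.07 (SE), and -0.37 ± 0.09 in the second shared probe set. Without the array of lowest epithelial score the upper sides of Cd74, H2-DMa and H2-DMb1/H2-DMb2 began at 9.97, 6.57 and 6.63. H2-DMb2 also has a probe set of its own, and there the upper side was higher by 0.23 ± 0.05 (SE), so the 2 readings of this pair differ in sign.

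H2-Ob, a subunit of the DO molecule that restrains DM, spread widely on both sides, from 3.04 through 4.08 to 6.66 in the lower arrays and from 2.89 through 3.88 to 6.70 in the upper. Its fitted difference was -0.31 ± 0.24 (SE). The H2-Ob probe set shared with Gm20506 moved far less, between 4.10 and 4.85 in all 56 arrays, with a fitted difference of -0.01 ± 0.05. Ciita, the regulator of the whole group, moved within a narrow band, 4.58 to 5.36 (median 4.98) and 4.73 to 5.57 (median 5.04). The 3 Ciita probe sets had differences between -0.01 and 0.06.

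**Figure D1:**
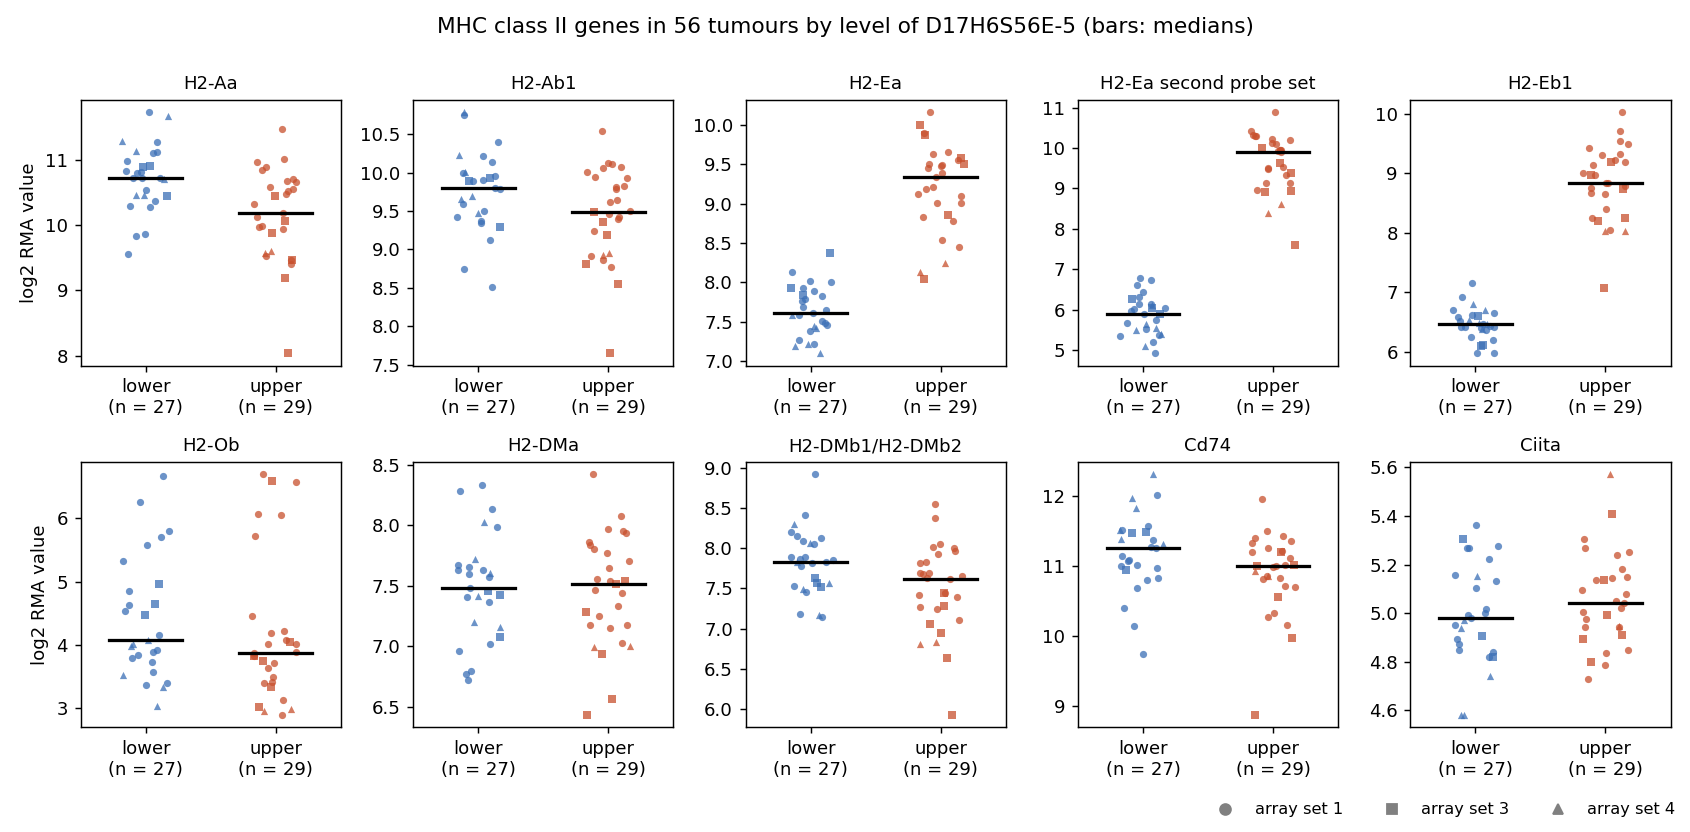
Each panel plots the log2 RMA value (y axis) of 1 class II gene in 56 tumours, for the 27 arrays at the lower and the 29 at the upper level of D17H6S56E-5 (x axis), with bars at the medians and marker shapes for the array sets. The second H2-Ea probe set separates fully (highest lower array 6.78, lowest upper array 7.60), H2-Eb1 and H2-Ea nearly so, and the other members overlap over most of their range.

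The second question was how far the members follow the cells that present antigen. For each tumour a score was formed as the mean z-score of a marker list, scaled to SD 1. The lists hold no member and no gene of the MHC region. They covered macrophages (15 genes tested, among them C1qa, C1qb, Mrc1 and Cd163), dendritic cells (12, among them Clec10a, Cd209a, Ccr7 and Cd83), B cells (7, among them Ms4a1, Cd79b, Fcmr and Bank1) and the response to interferon gamma (9, among them Iigp1, Gbp3, Cxcl9 and Igtp). The level of each list, as the mean over its genes, overlapped between the sides: 7.96 to 9.23 and 7.51 to 9.37 for macrophages, 5.64 to 6.70 and 5.61 to 6.78 for dendritic cells, 4.49 to 6.91 and 4.64 to 7.001 for B cells, and 7.31 to 9.17 and 7.08 to 8.97 for interferon gamma in the lower and the upper arrays. The upper minus lower difference in score was -0.13 ± 0.27 SD units (SE) for macrophages, -0.07 ± 0.27 for dendritic cells, 0.03 ± 0.27 for B cells and -0.29 ± 0.27 for interferon gamma. The epithelial score differed by -0.57 ± 0.26 SD units (SE) between the sides, and its part in the differences between sides was not tested.

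All 8 tested members were higher where the macrophage score was higher, with side and array set held fixed, by limma with Benjamini-Hochberg adjustment over all 12548 features outside the list. Of those features as a whole, 13.7% were called higher. H2-Ob passed the filter on low values only through 11 tumours with a B cell score above 1. Without these tumours 7 of 7 tested members were called, and the share of all features called there was not computed. The members' median slope was 0.44 (log2 per SD of score), against -0.01 over all features. The A chains had slopes of 0.55 ± 0.05 (SE) for H2-Aa, with a limma adjusted p of 4.98e-13, and 0.50 ± 0.04 for H2-Ab1. The slope of Cd74 was 0.49 ± 0.05 and that of H2-DMa 0.40 ± 0.03. The E chains followed with 0.38 ± 0.04 for H2-Eb1 and 0.31 ± 0.04 for H2-Ea, and the second H2-Ea probe set had 0.50 ± 0.05. H2-DMb1/H2-DMb2 had 0.35 ± 0.04. H2-Ob had 0.56 ± 0.13, with a limma adjusted p of 9.52e-04, the highest of the 8. The H2-Ob probe set shared with Gm20506 did not pass (0.03 ± 0.03, limma adjusted p = 0.608 over all probe sets), and the second probe set of H2-DMa had 0.18 ± 0.03 and that of H2-DMb1/H2-DMb2 0.35 ± 0.05. Within array set 1 all 8 were called too, with slopes from 0.25 (H2-Ea) to 0.54 (H2-Ob), and the share of all features called there was not computed.

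Ciita itself did not pass the test for the macrophage score (0.05 ± 0.03, limma adjusted p = 0.305). It was higher with the dendritic cell score (0.09 ± 0.03, limma adjusted p = 0.00680) and with the B cell score (0.10 ± 0.03, limma adjusted p = 0.0110), both in the fit with no filter. Its probe sets did not give the same calls in the fit over all probe sets. The third passed on the macrophage score (0.06 ± 0.02, limma adjusted p = 0.0431) and did not pass on the B cell score (0.04 ± 0.02), and the second did not pass on the dendritic cell score (adjusted p = 0.0816).

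The dendritic cell score gave the same count, 8 of 8 higher, where 13.3% of all features were called higher. Here too H2-Ob entered the test only through the 11 tumours with a B cell score above 1. Without them 7 of 7 tested members were called, with no share over all features computed. Slopes ran from 0.30 (H2-Ea and H2-DMb1/H2-DMb2) to 0.73 (H2-Ob). The macrophage and dendritic cell scores had a Pearson correlation of 0.79 over the 56 tumours, so the part of each cannot be told apart here. The dendritic cell and B cell scores had a correlation of 0.68, and their parts in the slope of H2-Ob were not separated.

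Correlations were computed within each side, 72 in all for 9 members, 4 scores and 2 sides, since the E chains form separate levels. Of these, 59 were above 0 after Benjamini-Hochberg adjustment of a two-sided permutation test with 100000 draws, and 0 were below; by Spearman's rho 60 were above 0. The share over all features was not computed for these correlations, so the counts cannot be read as particular to the members. By limma, 13.7% of all features were called higher with the macrophage score and 13.3% with the dendritic cell score. The shares were 6.21% for the B cell and 5.85% for the interferon gamma score. A raw p of 1e-05 is the smallest these draws can give. H2-Ab1 followed the macrophage score in the lower arrays with a Pearson r of 0.72 (permutation p = 2.00e-05, adjusted 7.58e-05; rho 0.70, permutation p = 9.00e-05, adjusted 3.41e-04). It did so in the upper arrays with an r of 0.94 (permutation p = 1e-05, adjusted 4.80e-05; rho 0.93, permutation p = 1e-05, adjusted 7.20e-05). Without the 2 arrays farthest from the median score, r was 0.72 and 0.91. Within array set 1 it was 0.74 in 18 lower and 0.90 in 21 upper arrays. For Cd74, r was 0.55 in the lower arrays (permutation p = 0.00265, adjusted 0.00502; rho 0.53, permutation p = 0.00542, adjusted 0.00887) and 0.84 in the upper (permutation p = 1e-05, adjusted 4.80e-05; rho 0.80, permutation p = 1e-05, adjusted 7.20e-05). Those values became 0.56 and 0.76 without the 2 farthest arrays, and 0.70 and 0.88 within array set 1.

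The slopes of H2-Eb1 and H2-Ea on the macrophage score were above 0 at both levels. H2-Eb1 had 0.20 ± 0.06 (SE) per SD in the lower arrays and 0.53 ± 0.05 in the upper. H2-Ea had 0.15 ± 0.06 and 0.43 ± 0.05, and its second probe set 0.38 ± 0.07 and 0.60 ± 0.06. In the lower arrays the Pearson r of H2-Ea with this score, 0.375, did not pass (permutation adjusted p = 0.0617). Its rho there, 0.40, did (permutation adjusted p = 0.0469). The difference in slope between the sides was tested as an interaction by limma, and 0 of 8 members passed after adjustment over 12548 features, of which 0% passed. The adjusted p was 0.474 for H2-Eb1 and 0.582 for H2-Ea. At an unadjusted limma p under 0.05 there were 4 of 8 members (H2-Eb1, H2-Ea, H2-Aa and Cd74) and 6.83% of all features. The slope difference of H2-Eb1 was 0.33 ± 0.07 (limma unadjusted p = 4.29e-05), and 0.27 ± 0.07 (limma unadjusted p = 4.28e-04) without the array of lowest epithelial score. Without that array 2 members, H2-Eb1 and H2-Ea, had an unadjusted limma p under 0.05, while H2-Aa had 0.0690 and Cd74 0.179. Without that array all 8 members were still called with the macrophage score, with slopes from 0.25 (H2-Ea) to 0.52 (H2-Ob). For the counts without that array, the share over all features was not computed.

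**Figure D2:**
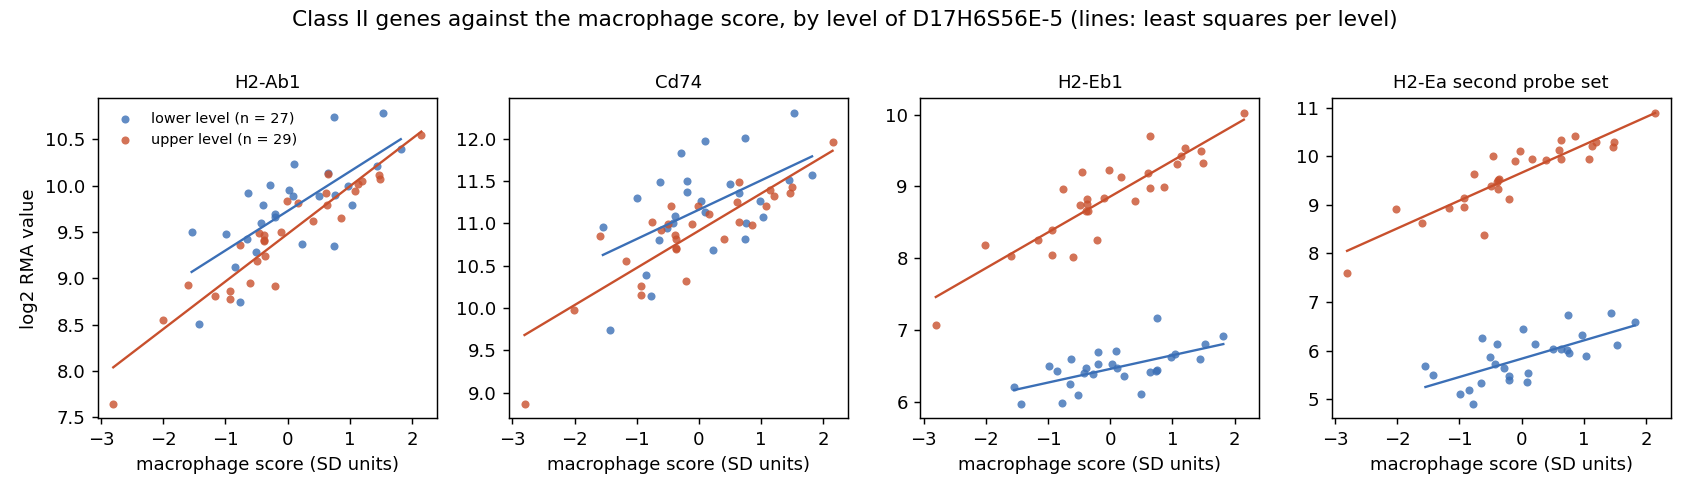
The log2 RMA values of H2-Ab1, Cd74, H2-Eb1 and the second H2-Ea probe set (y axes) are plotted against the macrophage score in SD units (x axes) for 56 tumours, coloured by the level of D17H6S56E-5, with a least-squares line per level. H2-Ab1 and Cd74 lie on nearly 1 line, whereas H2-Eb1 and H2-Ea lie on 2 lines, each rising with the score; the leftmost upper array, at -2.80, is the one with the lowest epithelial score.

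The share of variance that each term added divides the members in the same way, as a description. The D17H6S56E-5 level added 81.6% of the variance of H2-Eb1 after array set, 62.04% of that of H2-Ea and 82.7% for its second probe set. For these 3 the macrophage score then added 7.06%, 9.26% and 4.999%. The order was the opposite for H2-DMa, where the level added 0.014% and the score 64.7%, for H2-Ab1 (4.83% and 59.3%), for Cd74 (2.96% and 55.3%) and for H2-Aa (14.4% and 52.05%). H2-DMb1/H2-DMb2 had 10.3% and 36.9%, beside 26.6% for array set. Leaving the level out of the fit, the macrophage slopes were 0.31 for H2-Eb1 (limma adjusted p = 0.220) and 0.27 for H2-Ea (limma adjusted p = 0.0939), against 0.38 and 0.31 with it, and neither was called.

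**Figure D3:**
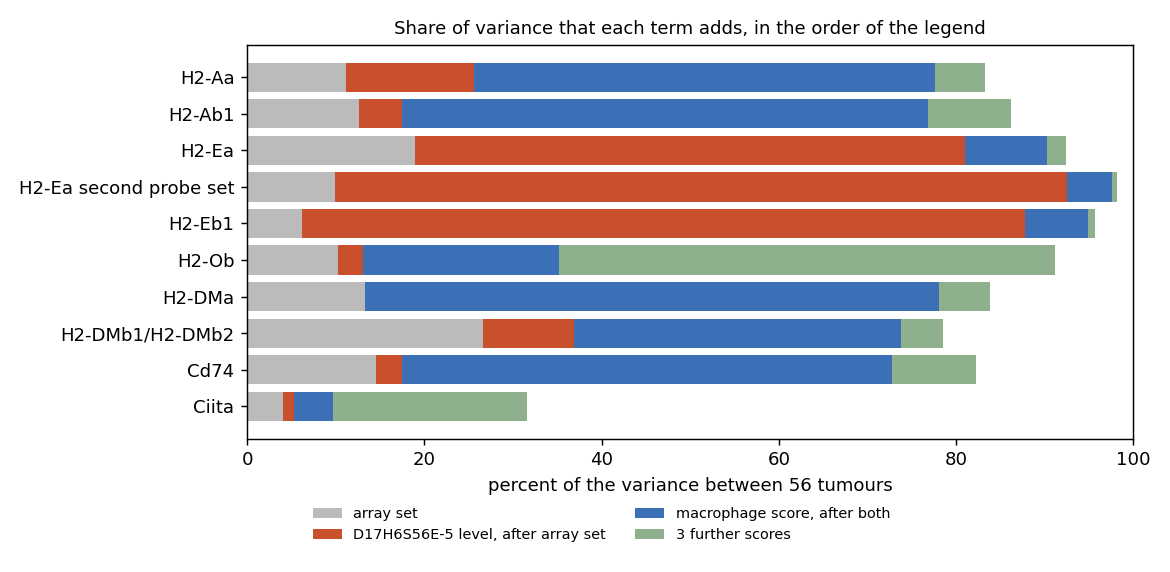
Stacked bars give the percent of the variance between 56 tumours (x axis) that array set, the D17H6S56E-5 level, the macrophage score and 3 further scores add in that order, for each class II gene (y axis). The level takes most of the bar for H2-Eb1 (81.6%) and both H2-Ea probe sets, the macrophage score for H2-DMa (64.7%), H2-Ab1, Cd74 and H2-Aa, and the further scores for H2-Ob.

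B cells gave another pattern. With the B cell score, 4 of 8 members were higher by limma, where 6.21% of all features were: H2-Ob, H2-DMa, H2-DMb1/H2-DMb2 and H2-Ea. H2-Ob stood out with 0.96 ± 0.05 (SE) per SD and a limma adjusted p of 9.45e-22, beside 0.23 ± 0.05 for H2-DMa, 0.19 ± 0.05 for H2-DMb1/H2-DMb2 and 0.19 ± 0.05 for H2-Ea. H2-Ob passed the filter on low values only through the 11 tumours with a B cell score above 1. In the other 45 tumours it reached at most 5.32, below the limit of 5.42. The B cell score held 7 genes, and without the 11 tumours only 3 B cell genes passed that filter. The same tumours thus entered the choice of H2-Ob and of the genes of the score, and the adjusted p does not stand apart from that choice. In the fit with no filter, where the score held 11 genes, the slope of H2-Ob was 0.93 (limma adjusted p = 5.24e-18). It entered the tests on the macrophage and dendritic cell scores in the same way, through those 11 tumours. The H2-Ob probe set shared with Gm20506 was also higher with the B cell score, by 0.10 ± 0.02 (limma adjusted p = 0.00110 over all probe sets), so the size for H2-Ob depends on the probe set. On the same score the second probe sets of H2-DMa (adjusted p = 0.531) and H2-DMb1/H2-DMb2 (adjusted p = 0.108) did not pass by limma. H2-Ob is known to be made mainly in B cells. Its r with the score was 0.89 in the lower arrays (permutation p = 1e-05, adjusted 4.80e-05; rho 0.81, permutation p = 1e-05, adjusted 7.20e-05) and 0.96 in the upper (permutation p = 1e-05, adjusted 4.80e-05; rho 0.78, permutation p = 1e-05, adjusted 7.20e-05). Without the 2 farthest arrays r was 0.82 and 0.94, and within array set 1 it was 0.94 and 0.96.

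The B cell score leaves a gap, with 45 tumours at -1.13 to 0.66 and 11 at 1.19 to 2.65, so the relation was also taken within each part, a division made after its values were seen. In the 45, H2-Ob lay between 2.89 and 5.32 and its r was 0.60 (permutation p = 3.00e-05, adjusted over 4 tests 1.20e-04; rho 0.59, permutation p = 6.00e-05, adjusted 2.40e-04). In the 11 it lay between 5.58 and 6.70 and its r was 0.83 (permutation p = 0.00411, adjusted 0.00822; rho 0.78, permutation p = 0.00661, adjusted 0.0132). Without the 2 farthest arrays r was 0.50 and 0.72. For Ciita r was 0.23 in the 45 (permutation p = 0.120, adjusted 0.120; rho 0.33, permutation p = 0.0277, adjusted 0.0370) and 0.60 in the 11 (permutation p = 0.0515, adjusted 0.0687; rho 0.55, permutation p = 0.0881, adjusted 0.0881). Without the 11 tumours H2-Ob no longer passed the filter, only 3 B cell genes did, and of the 7 members tested H2-DMa alone was called with that score. The share of all features called there was not computed.

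**Figure D4:**
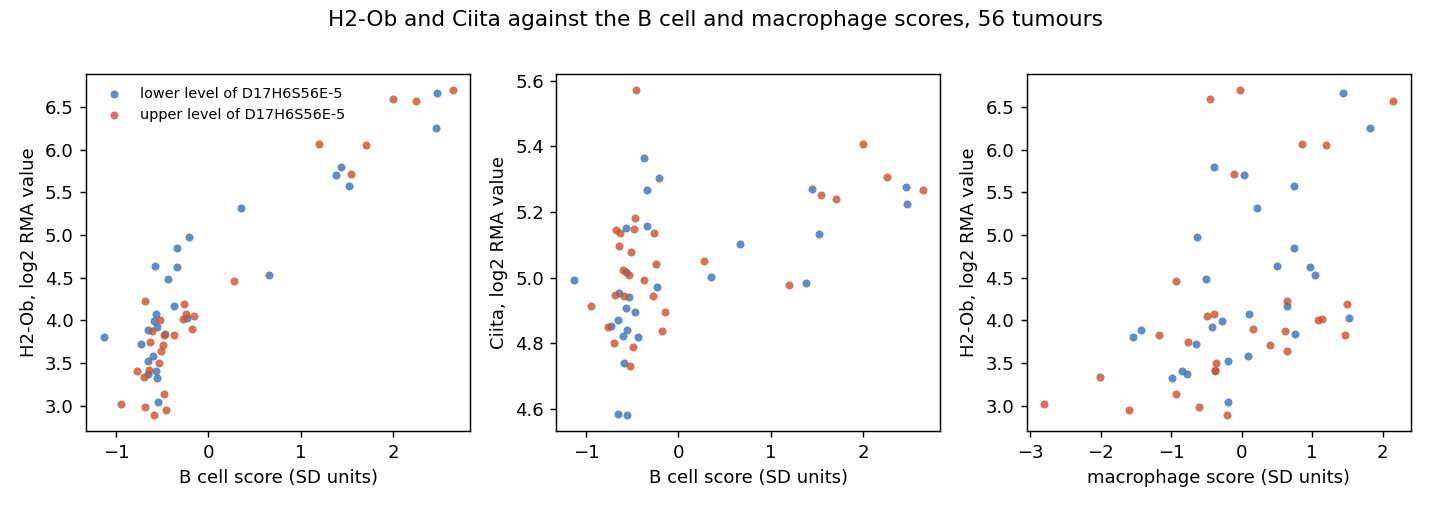
The log2 RMA values of H2-Ob and Ciita (y axes) are plotted against the B cell or macrophage score in SD units (x axes) for 56 tumours, coloured by the level of D17H6S56E-5. H2-Ob rises with the B cell score in both colours, from 2.89 to 6.70, with 11 tumours at the right of a gap, and is scattered against the macrophage score; Ciita stays between 4.58 and 5.57.

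The interferon gamma score gave 7 of 8 members higher, where 5.85% of all features were called higher. The slopes ran from 0.18 for H2-Ea to 0.34 for H2-Ab1. H2-Ob did not pass (0.29 ± 0.13, limma adjusted p = 0.134), nor did Ciita (0.04 ± 0.03, limma adjusted p = 0.439, no filter). Within array set 1 alone, 2 of 8 members were called, H2-Ab1 (0.29, limma adjusted p = 0.00702) and Cd74 (0.28, limma adjusted p = 0.00667). The share of all features called there was not computed.

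In a fit that holds the macrophage, B cell and interferon gamma scores at once, added after the single fits were seen, 7 members kept a slope on the macrophage score, from 0.24 ± 0.05 (SE) for H2-Ea to 0.46 ± 0.05 for H2-Aa. H2-Ob did not (0.12 ± 0.06, limma adjusted p = 0.225), and it was the 1 member called with the B cell score (0.90 ± 0.05). H2-Ab1 (0.18 ± 0.04) and Cd74 (0.18 ± 0.04) were the 2 called with the interferon gamma score. The share of all features called in this fit was not computed, so these counts have no background beside them. The scores are correlated, at 0.43 for macrophage and B cell and 0.38 for macrophage and interferon gamma. The dendritic cell and T cell scores were not in this fit. The B cell score had a Pearson r of 0.68 with the dendritic cell score and 0.77 with the T cell score. Whether H2-Ob follows the B cell score apart from those scores was therefore not tested.

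**Figure D5:**
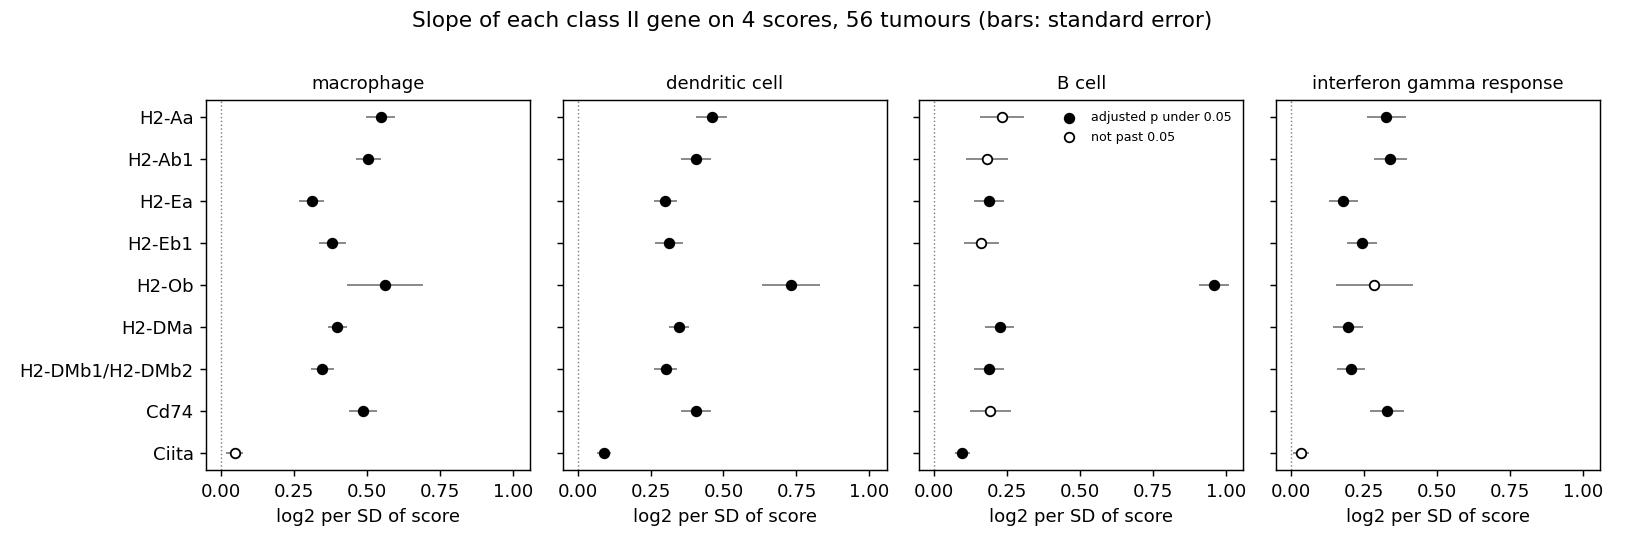
Points give the slope in log2 per SD of score (x axis) of each class II gene (y axis) on the macrophage, dendritic cell, B cell and interferon gamma scores in 56 tumours, with bars for the standard error; filled points passed an adjusted p under 0.05, and Ciita comes from the fit with no filter. Most members sit at 0.30 to 0.55 on the macrophage score, and H2-Ob stands alone on the B cell score, at 0.96.

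Among themselves the members ranged from closely to weakly alike within a side. H2-Aa and H2-Ab1 had a Pearson r of 0.95 in the lower and 0.98 in the upper arrays, and H2-DMa with H2-DMb1/H2-DMb2 had 0.87 and 0.93. H2-Eb1 followed H2-Aa with 0.71 and 0.97, and H2-Ea followed H2-Eb1 with 0.30 and 0.78. Between the second H2-Ea probe set and H2-Eb1, r was 0.52 and 0.96. H2-Ob had 0.19 and 0.50 with Cd74, 0.28 and 0.57 with H2-Eb1, and 0.66 and 0.68 with H2-Ea. Ciita correlated least with Cd74 in the lower arrays (0.18) and with the representing probe set of H2-Ea in the upper (0.14). These values share arrays and array sets and are given as a description.

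The genes of no list most like 3 of the members differ in kind. For Cd74, the 5 with the largest Pearson r over 56 tumours were Il10ra (0.84), Pld4 (0.83), Rgs10 (0.82), Tmem119 (0.82) and Sirpa (0.81), and within the sides their r lay between 0.68 and 0.88. For Ciita they were Btla (0.55), Gimap3 (0.53), Lmo2 (0.52), Trav9d-3 (0.51) and Timd4 (0.51). For H2-Ea they were 9130008F23Rik (0.74), Zfp952 (0.61), Gtpbp2 (0.59), Man2a1 (0.55) and Adgrf5 (0.55), all on chromosome 17. Within the lower and the upper arrays r was 0.09 and 0.10 for 9130008F23Rik, 0.20 and 0.53 for Zfp952, 0.47 and 0.48 for Gtpbp2, 0.18 and 0.64 for Man2a1, and 0.17 and 0.39 for Adgrf5.

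Of 21 tested genes of the wider class II pathway (2 more did not pass the filter), 11 were higher and 1 lower with the macrophage score, with a median slope of 0.07. Among all features 13.7% were called higher with that score, and the share called lower was not computed for any score. Cd86, a ligand that co-stimulates T cells, had 0.33 ± 0.04 (SE), Ctss, the protease that trims the invariant chain, had 0.30 ± 0.03, and Marchf1, a ubiquitin ligase that takes class II off the surface, had 0.24 ± 0.03. Creb1, a factor that binds class II promoters, did not pass (-0.07 ± 0.06). The lower gene was Nfyb, a subunit of NF-Y (-0.07 ± 0.02). With the dendritic cell score 11 were higher and 3 lower (Nfyb, Rfxap and Creb1), with the B cell score 7 were higher, and with interferon gamma 5. Among all features the shares called higher with these scores were 13.3%, 6.21% and 5.85%. Of the 21, none of the slopes for the 3 RFX subunits Rfx5, Rfxank and Rfxap on the macrophage score passed the test. H2-Oa, the partner of H2-Ob in the DO molecule, followed the B cell score with 0.28 ± 0.02. Nfyb, the RFX subunits and H2-Oa are named after their values were seen.

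Of 30 tested neighbours in the MHC region, 11 were higher with the macrophage score and 14 with the interferon gamma score, with median slopes of 0.04 and 0.08. Among all features the shares called higher were 13.7% and 5.85%. On the macrophage score Tnxb, an extracellular matrix gene, had 0.75 ± 0.07 (SE), Ltb, a lymphotoxin subunit, 0.44 ± 0.10 and Cfb, complement factor B, 0.40 ± 0.09. On the interferon gamma score Cfb had 0.43 ± 0.07. D17H6S56E-5 itself did not pass on the macrophage score (limma adjusted p = 0.956). That fit holds fixed a side cut from its own values, and its 1 slope averages opposite signs. The slope of D17H6S56E-5 was -0.16 ± 0.055 (SE) in the lower arrays and 0.12 ± 0.05 in the upper. The difference was 0.28 ± 0.07 (limma unadjusted p = 2.75e-04, adjusted p = 0.496 over all probe sets). The class I genes H2-K1 and H2-D1 and the antigen transporter Tap1, named after their values were seen, had 0.21 ± 0.02, 0.19 ± 0.02 and 0.38 ± 0.03 on the interferon gamma score. The H2-D1 slope is that of its probe set of highest mean, with a fitted upper minus lower difference of -0.28 ± 0.06 (SE). The H2-D1 probe sets that did not overlap between the sides had upper means higher by 4.36 to 6.32, and their slopes are not given here.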

How the data were processed

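The submitters' processing notes name RMA, which corrects background, normalises and summarises probes. No version is given in the sources used here, nor whether all arrays were normalised together. The deposited values span 1.68 to 14.57 and were read as log2 for that reason, since no source states a scale. Scanner files were not used here. RNA was extracted with Trizol and RNeasy and labelled with biotin, per the labels' protocols. The number of arrays limits the precision.

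The platform annotation assigns 34958 probe sets to 1 gene, 932 to several and does not list 9211. The RefSeq table held 34754 of the first kind. The platform's build is not named, so that table gave only names and chromosomes.

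Array sets were found from the values: a split counted where 20 or more probe sets, on 10 or more chromosomes, divided the arrays identically and widely (Ashman's D, a distance of means in SD units, above 4.5), with 15% or more of arrays in the smaller group. Slopes were fitted with limma 3.58.1 (lmFit, eBayes; R 4.3.3) on side, array set and 1 score, leaving out the list's own genes, with Benjamini-Hochberg adjustment at 0.05, and checked on simulated data. Permutation tests used numpy 2.4.6. The p-values measure the spread between animals of 1 group.

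Named genes are the members, D17H6S56E-5, up to 4 genes per list by SD and the 5 genes most like Cd74, Ciita and H2-Ea. The members, lists and this rule were chosen with earlier results of these data known. Some genes of the lists are not reported here.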

Additional observations from a re-analysis of the deposited data

How the results depend on the processing

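The macrophage count (8 of 8) was 6 to 8 and the dendritic cell count (8 of 8) 6 to 9 over the alternatives run, the lowest without the side term. The B cell count (4 of 8) became 2 with the mean of all probe sets of a gene, 7 of 7 under a stricter filter that left 3 genes in the score, and 1 both in the fit of 3 scores and without the 11 arrays with a B cell score above 1. The interferon gamma count (7 of 8) became 2 in array set 1 alone, 3 with animal numbers under 4000 and 2 in the fit of 3 scores; fewer arrays entered the first 2, and the cause was not tested further. The interaction count (0) became 1, H2-Eb1 (0.37, limma adjusted p = 0.0201), over 66 animals on all 68 arrays, and the cause was not tested. Non-overlapping members (0) became 2 in array set 1 alone (H2-Ea and H2-Eb1), 1 without arrays with suffix R (H2-Eb1), 1 without the array of lowest epithelial score (H2-Eb1) and 1 with the mean of all probe sets (H2-Ea). In the main setting D17H6S56E-5, which set the sides, was the only non-overlapping feature of 12563. For the counts in the alternative settings, the share over all features was not computed. The H2-Ea difference (1.495) was 3.75 in its second probe set and 1.41 to 1.77 elsewhere, and that of H2-Eb1 (2.40) was 2.31 to 2.46. Of 72 correlations, 51 to 58 were above 0 after adjustment, in place of 59. No direction of a called slope reversed. The fit of 3 scores, the second H2-Ea probe set and the settings that leave out the array of lowest epithelial score or the 11 arrays were added after the data were seen. No paired analysis was possible because the labels give 1 group.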
